A study of Mus musculus with 20 samples.

Results

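The 83 genes described here are those of the proteins of the cytosolic ribosome in the mouse and their named copies. They were chosen by symbol, as every gene in the files whose name starts with Rpl or Rps followed by a digit. Names marked -ps as pseudogenes, the S6 kinases and Rps19bp1 were left out. Rps4l, which RefSeq classes as a transcribed pseudogene, stayed in. The members are 83 of 24411 genes listed. Of these, 50 belong to the large and 33 to the small subunit. The standard copies number 73, and 10 are paralogues or further copies. Of the copies, 6 have names that end in l (Rpl3l, Rpl10l, Rpl36al, Rpl39l, Rps4l and Rps27l), and the other 4 are Rpl7l1, Rpl22l1, Rps27rt and Rpl37rt. All 83 had enough counts to be tested in every comparison.

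Messenger RNA was measured in 16 libraries of 10 preimplantation embryos each, all from superovulated oocytes fertilised in vitro and cultured in KSOM medium. In the knockdown experiment, fertilised eggs were electroporated with non-targeting siRNA (siControl) or siRNA against Pcgf5 (siPcgf5), and 2 libraries of each were made from late 2-cell embryos at 36 hours and from morulae at 72 hours after insemination. In the knockout experiment, 2 libraries of WT, 3 of Hetero KO and 3 of Homo KO embryos were made at the 4-cell stage, 48 hours after insemination. Hetero KO and Homo KO embryos carry 1 or 2 copies of a deletion of an MT2C_Mm repeat, a retrovirus-like long terminal repeat, at Pcgf5, and received no siRNA. The strain, and whether the deletion comes from 1 founder line, are not given in the sources used here. All libraries carry the same batch label, and the labels do not say whether replicates of a group are separate cultures, so p-values measure only the spread between these pools.

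Ribosomal proteins are needed in equal numbers for each ribosome, and their mRNAs are among the most abundant in growing cells. Most of these mRNAs begin with a run of pyrimidines right at the cap, the 5' terminal oligopyrimidine (TOP) tract, through which mTOR and the RNA-binding protein Larp1 control their translation. An oocyte builds a store of ribosomes and then stops growing, and the embryo takes up ribosome production again after its own genome is switched on. Some ribosomal protein genes have paralogues that are used mainly in testis or muscle, and several of these stand in for a gene on the X chromosome.

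Annotated start sites lay near a long pyrimidine run in some members and not in others. The run could lie anywhere in the window read, so this is not a count of TOP tracts. The RefSeq promoter table of GRCm38.p6 held 63 of the 83 genes. Windows of 30 bases were read, 15 before the annotated start and 15 from it on, and the longest run made only of C and T on the gene's strand was measured. A run of 8 or more was present in 24 of the 63 members, or 38.1%, against 11.9% of all 27025 starts in the table. Among standard copies it was present in 22 of 54, or 40.7%, and among copies in 2 of 9. The windows below show 4 standard copies with a long run, then Rpl26, the gene with the largest change between stages, and then 4 genes whose copies are compared further on. Capitals mark the longest run of C and T (the first of equal runs).
Rpl35 (chr2:39005117-39005146, minus strand): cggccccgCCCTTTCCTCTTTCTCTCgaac
Rps6 (chr4:86857353-86857382, minus strand): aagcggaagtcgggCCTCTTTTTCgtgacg
Rpl18 (chr7:45718056-45718085, plus strand): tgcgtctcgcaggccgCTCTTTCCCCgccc
Rpl38 (chr11:114668565-114668594, plus strand): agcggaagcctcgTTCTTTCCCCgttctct
Rpl26 (chr11:68901551-68901580, plus strand): CTCgcggcaacttacagaaccggaagtcgc
Rps27 (chr3:90213634-90213663, minus strand): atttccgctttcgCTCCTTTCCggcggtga
Rps27rt (chr9:114982725-114982754, minus strand): agaacttaTCCCTTgctttccggcggtgac
Rpl7l1 (chr17:46782642-46782671, minus strand): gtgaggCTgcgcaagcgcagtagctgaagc
Rpl3l (chr17:24727811-24727840, plus strand): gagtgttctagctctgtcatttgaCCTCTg

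Rpl35 has the longest run of those shown, 18 bases across the annotated start, while Rpl26 has no run above 3 and Rpl7l1 none above 2. Rps27 and Rps27rt share 14 bases in a row inside these windows, more than any other pair compared. The letters CGGAAG, the core of the site bound by ETS factors such as Gabpa, were searched on both strands of the 300 bases around each start. They occurred in 65.1% of members and in 17.2% of all starts. Of the standard copies 70.4% held them, and of the copies 3 of 9. These are matches of letters in windows set by an annotation, and the start used in these embryos was not measured.

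The labels were checked on Pcgf5 and on stage markers. Total expected counts ran from 14310634 to 55620137 per library, higher in the knockdown experiment (from 22435872) than in the 4-cell libraries (up to 17871206). Late 2-cell embryos had 397 and 931 TPM of Pcgf5 with siControl, against 59.1 and 103 with siPcgf5, and morulae had 146 and 99.2 against 24.3 and 19.3. At the 4-cell stage the 3 Homo KO libraries were lowest with 171, 199 and 158 TPM, below WT with 339 and 254 and Hetero KO with 331, 248 and 249.7. Stage markers followed the labels. The summed TPM of 6 late 2-cell genes such as Zscan4d ran from 1591 to 2939 at the late 2-cell stage and from 4.74 to 18.1 in morulae, and 6 oocyte genes such as Omt2b from 26842 to 43256 and 39.4 to 62.1. The library siControl late 2-cell replicate 1 stood apart, with the highest oocyte sum of its stage (43256 and 26842 TPM in the 2 siControl libraries) and, as given below, the lowest ribosomal protein level. Results that rest on it are given with and without it.

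Ribosomal protein mRNA took up a larger share of the transcriptome at each later stage. TPM (RSEM's transcript abundances, which scale each gene by its length and each library to the same total) of the 83 genes summed to 5.43 and 7.36% of the siControl late 2-cell libraries and to 23.4 and 22.4% of the siControl morula libraries. In siPcgf5 embryos the share was 7.90 and 7.63% at the late 2-cell stage and 22.7 and 21.8% in morulae. WT embryos at the 4-cell stage lay between, at 15.5 and 16.7%, and so did Hetero KO (14.8, 13.2 and 15.8%) and Homo KO embryos (14.6, 12.6 and 12.5%). No library of a stage overlapped a library of another stage. Read as a share of all expected counts, which weighs long transcripts more, the members rose from 2.02% ± 0.427 (SD, n = 2) in siControl late 2-cell embryos to 10.6% ± 0.369 (SD, n = 2) in siControl morulae. In pools of whole embryos, more of these mRNAs per cell, less of all other mRNA and a change in cell number cannot be told apart.

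**Figure D1:**
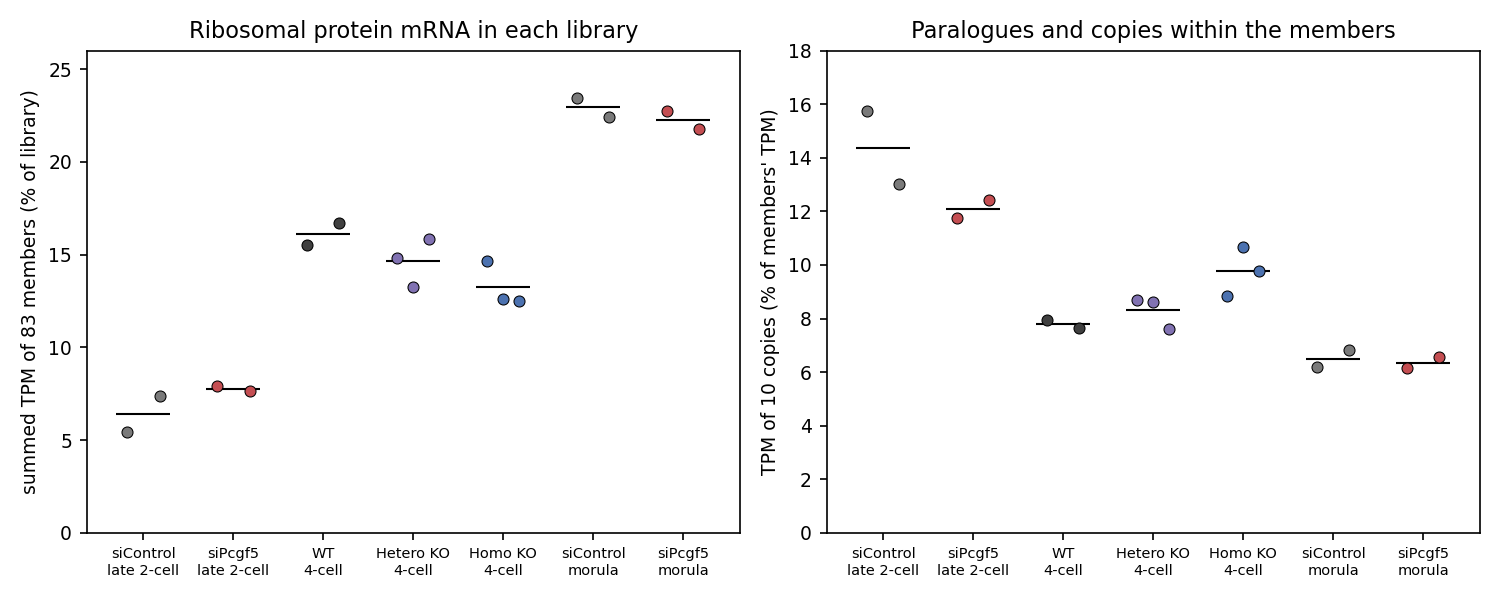
Left, summed TPM of the 83 members as percent of each library (points, 1 library each; bars, group mean). Right, the part of that sum that comes from the 10 paralogues and copies. Libraries at the late 2-cell stage lie at or below 7.90% on the left and at or above 11.7% on the right, and morula libraries at or above 21.8% and at or below 6.81%.

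The rise reached high into the list of abundant transcripts. In the late 2-cell libraries 8 or 9 members were among the 100 most abundant genes, in WT 4-cell embryos 30 in both libraries, and in the morula libraries 41 to 43. Members above 1000 TPM numbered 10 in siControl late 2-cell replicate 1 and 21 in the other 3 late 2-cell libraries, against 62 to 67 in morulae. Both subunits took part, and the ratio of large to small subunit TPM ranged from 1.19 to 1.35 over all 16 libraries.

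Levels differed widely between members even though the proteins are used in equal numbers. Rpl41, a very short peptide of the large subunit, was the most abundant, with a mean of 17632 TPM over the 16 libraries and a range from 8442 to 26207. Rpl38, Rpl39, which lines the exit tunnel of the nascent peptide, and Rps29 were also among the most abundant, with means of 7804, 5897 and 5144 TPM. At the other end of the standard copies in TPM stood Rps15a with a mean of 83.5 TPM, Rpl22 with 181 and Rpl27a with 289. This order depends on the scaling by length. In siControl morula replicate 1, Rps15a had 145 and Rps28 1798 TPM. In counts scaled by library but not by length (CPM), they had 918 and 334. Likewise Rpl38 had 13107 and Rpl5 2060 TPM, against 1970 and 4819.5 CPM. Which scale is closer to the number of transcripts was not tested. The SD of log2 TPM over the 73 standard copies was 1.42 to 1.47 in late 2-cell libraries, 1.25 to 1.38 in 4-cell libraries and 1.18 to 1.20 in morula libraries, so the members' levels lay closer together at the last stage. Levels of genes with near-identical copies or pseudogenes depend on how reads were shared out. The 6 pseudogenes of members that the files list summed to 328 to 445 TPM in late 2-cell and 2334 to 2780.4 TPM in morula libraries.

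In control morulae 82 of the 83 members were called higher in relative mRNA level than at the late 2-cell stage, and Rpl3l was called lower. The test was edgeR's quasi-likelihood F test on expected counts, with log2 fold changes scaled by TMM and p-values adjusted over all 16980 genes tested. Of all genes, 24.9% were called higher and 28.1% lower at an adjusted p under 0.05. The members' median log2 fold change was 3.18, with the middle of the list from 2.74 to 3.63, and the median over all genes was -0.34. Scaling by DESeq2 size factors moved the members' median to 3.01 and that of all genes to -0.51. Such a change shifts all genes nearly alike, so the distance of 3.52 between the medians, the same under either scaling, does not test the scaling. On log2(TPM + 1) with limma the distance was 2.64. The calls over all genes were 4220 higher and 4766 lower with edgeR, and 2474 higher and 7431 lower with limma on TPM, while 82 of 83 members were positive under every scaling.

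The 5 genes with the largest rise encode proteins at different places of the ribosome. Rpl26, which lies near the exit of the tunnel, stood at 112 and 124 TPM in siControl late 2-cell and 1529.6 and 1319.7 TPM in siControl morula embryos, with a log2 fold change of 4.67 (SE 0.234, edgeR adjusted p = 6.46e-07). Rps18, in the head of the small subunit, stood at 183 and 253 TPM at the earlier and 2208 and 2086 TPM at the later stage, a log2 fold change of 4.38 (SE 0.265). These groups lay far apart, with the gap between stages many times the gap between replicates. Rpl8, next to the peptidyl transferase centre, rose by 4.20 (SE 0.228), Rpl12, at the base of the stalk that binds elongation factors, by 4.15 (SE 0.303), and Rpl35a by 4.13 (SE 0.261) on the same log2 scale. The smallest rise among standard copies was that of Rps27, 1.85 (SE 0.605, edgeR adjusted p = 0.0289), a gene whose level was not stable between replicates (see its copies below), followed by Rpl28 with 2.18 (SE 0.213).

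**Figure D2:**
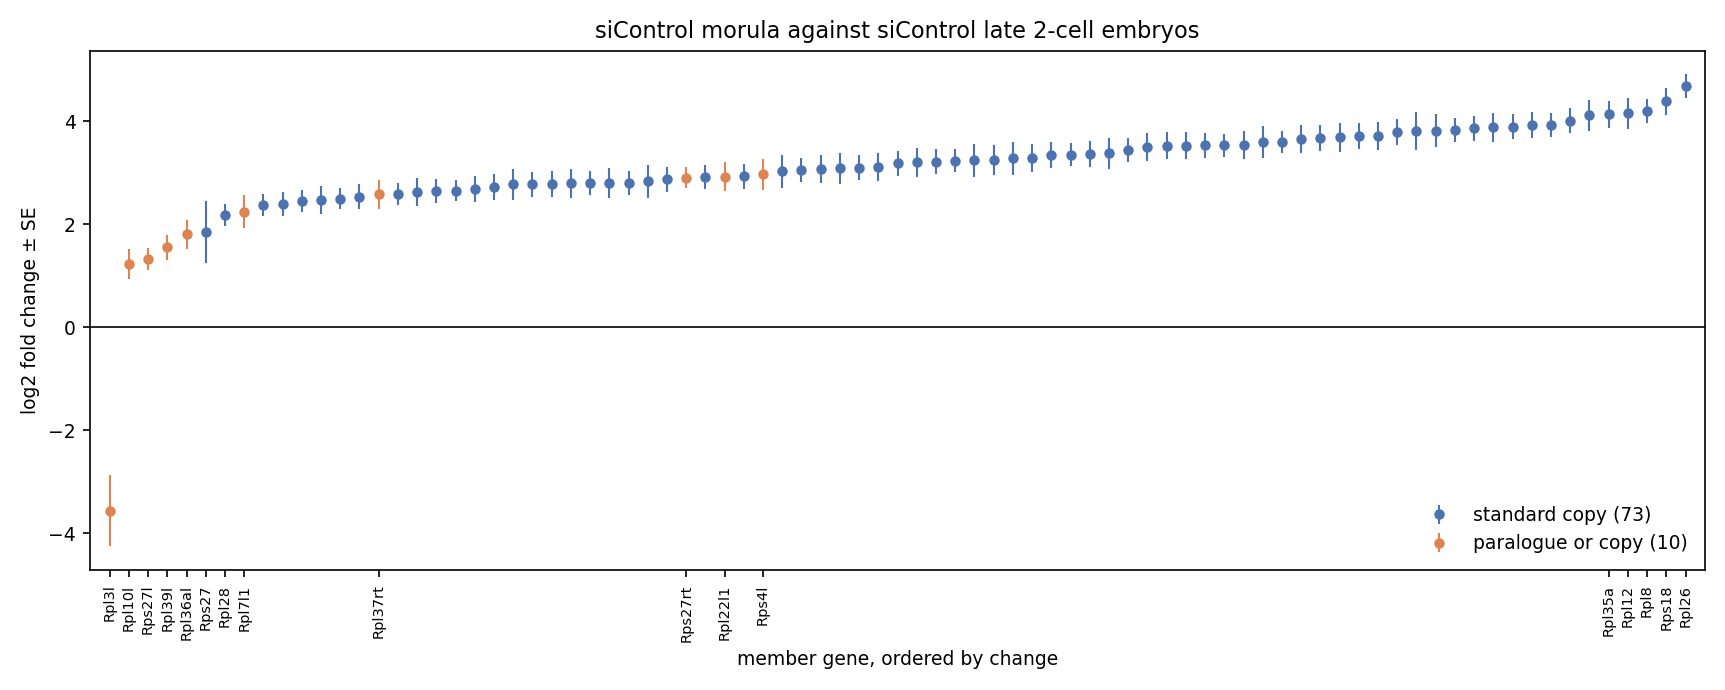
Log2 fold change (points) with the standard error of the edgeR fit (bars) of each of the 83 members, siControl morula against siControl late 2-cell, ordered by size, with names under the copies and the members at both ends. All 73 standard copies lie above 1.8, 5 of the 6 members with the smallest values are paralogues, and Rpl3l alone lies below 0.

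Members with a role outside the ribosome, or with a known disease link, moved with the rest. Rpl5 and Rpl11, which with 5S RNA form a particle that also binds Mdm2 and so links the ribosome to p53, rose by 3.89 (SE 0.242) and 3.02 (SE 0.326). Rpl5 stood at 243 and 279 TPM and then 2060.1 and 1798 TPM, and Rpl11 at 376 and 742 and then 2234 and 2126 TPM. Rps6, the target of the S6 kinases, rose by 3.24 (SE 0.297), from 399 and 636 to 2556 and 2327 TPM. Rps19 and Rps26 are mutated in Diamond-Blackfan anaemia, a failure of red cell production. Rps19 rose by 3.21 (SE 0.244) and Rps26 by 2.36 (SE 0.213), the latter among the smaller rises, from 1256 and 1544 to 3578 and 3122 TPM. Rps27a, which is made as a fusion with ubiquitin, rose by 2.93 (SE 0.243), and Rpl38, needed in the mouse embryo for translation of Hox mRNAs, by 3.53 (SE 0.224). Of the most abundant members, Rpl41 rose by 2.45 (SE 0.220) and Rpl39 by 2.58 (SE 0.212), less than the members' median, while Rpl38 and Rps29, with 3.44 (SE 0.225), rose by more.

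Among the standard copies, genes with a low level in TPM rose by more. Levels were taken from the siPcgf5 late 2-cell libraries and changes from the siControl libraries, so that level and change share no library. A gene's late 2-cell level still enters its change with a minus sign, since both arms have like levels. A negative relation thus restates the narrower spread of levels in morulae. The 24 standard copies with the lowest levels (median 188 TPM) had a median log2 fold change of 3.74, the 24 in the middle (567 TPM) one of 3.29, and the 25 with the highest levels (1204 TPM) one of 2.80. Across these 73 genes Pearson's r was -0.50 and Spearman's rho -0.57, given as a description, since genes of a library share its depth and are not independent. Against the siPcgf5 morula levels the same changes gave r = -0.15. A long pyrimidine run near the annotated start went with little difference, with a median of 3.43 for 22 standard copies with 8 or more and 3.19 for 32 with a shorter run.

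In siPcgf5 embryos the same step was seen with smaller values. Of the 83 members 81 were called higher and Rpl3l lower, with Rps27 not called, and the median was 2.65 beside -0.38 over all genes, of which 24.5% were higher and 28.2% lower. The limma fit on log2(TPM + 1) called 2579 higher and 6894 lower over all genes where edgeR called 4162 and 4787. Rps18 had the largest rise, 4.02 (SE 0.260), from 259 and 207 to 2059.6 and 2050.5 TPM, followed by Rpl8 (3.87), Rpl3, of the peptidyl transferase centre (3.83), Rpl12 (3.70) and Rpl18 (3.61). Rpl26 rose from 188 and 189 to 1177 and 1293 TPM. Whether the step differs between the arms is tested below as the difference of the knockdown effects.

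Embryos at the 4-cell stage place the members between the other stages, in a comparison across the 2 experiments. WT 4-cell embryos received no siRNA, and stage, electroporation and experiment cannot be told apart here. Against siControl late 2-cell embryos 77 of 83 members were called higher and 0 lower, beside 17.5% and 15.2% of all genes, with a median of 1.88 against -0.33. Without siControl late 2-cell replicate 1 the median was 1.54 and 80 members were above 0. DESeq2 called 0 members lower as well, and limma on log2(TPM + 1) called Rpl3l and Rpl37rt lower. The calls over all genes were 2916 higher and 2526 lower with edgeR, 2773 and 3617 with DESeq2, and 2389 and 5229 with limma. Of the 6 members not called, 5 were copies (Rpl3l, Rpl10l, Rpl37rt, Rpl39l and Rps27l), and the last was Rps27. Rpl3 had the largest rise, 3.16 (SE 0.338), from 92.2 and 126 TPM to 628 and 886 TPM, and then Rpl13 (2.83), Rpl35a (2.63), Rpl12 (2.62) and Rps18 (2.56).

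From WT 4-cell to siControl morula embryos 76 members were called higher and Rpl3l lower, beside 14.9% and 15.3% of all genes, with a median of 1.33 against 0.00. The rise was smaller with limma on log2(TPM + 1), where 48 members were called higher with a median of 0.61, and 1673 genes were higher and 3591 lower over all genes, against 2492 and 2550 with edgeR. Rpl26 rose by 2.32 (SE 0.201), from 529 and 439.6 to 1529.6 and 1319.7 TPM, Rpl18 by 2.22, Rpl36 by 2.01 and Rpl8 by 1.85. Members not called were Rpl3, Rpl10a, Rpl10l, Rpl22l1, Rpl39 and Rps27. In 63 of the 73 standard copies the first step was larger than the second, and in 65 every late 2-cell library lay below both WT 4-cell libraries and these below every morula library in TPM. The latter order held in 67 of all 83 members and in 4.43% of the 16669 genes tested. The balance differed by gene. Rpl3 had 3.16 in the first step and 0.72 in the second, Rpl39 1.91 and 0.66, and Rps26 1.72 and 0.64. Rpl18 had 1.88 and 2.22, and Rps12 1.01 and 1.48. These 2 comparisons share the WT libraries, so a low or high WT value shifts their balance.

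Paralogues and copies made up less of the members' TPM at the later stage, 15.8 and 13.0% in siControl and 11.7 and 12.4% in siPcgf5 late 2-cell embryos, and 6.17 to 6.81% in morulae. Summed over the siControl libraries, TPM of the 73 standard copies was 3.91 times as high in morulae as at the late 2-cell stage, and TPM of the 10 copies 1.64 times. In siPcgf5 the same values were 3.06 and 1.51. The ratio of a paralogue to its standard copy was compared in TPM, plus 0.1, over 4 late 2-cell against 4 morula libraries with a two-sided exact permutation test, whose smallest possible p is 0.0286. In 5 of 9 pairs tested the 2 stages did not overlap, all with a lower ratio in morulae and an exact p of 0.0286, which became 0.0514 when adjusted over the 9 pairs and so did not pass 0.05.

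Rpl3l, a paralogue used in muscle, had the largest shift and was the only member to fall. It stood at 13.5 and 14.7 TPM in siControl and 22.6 and 20.7 in siPcgf5 late 2-cell embryos, at 9.16 and 6.97 in WT 4-cell embryos, and at 0.640 and 0.530 TPM in siControl and 0.190 and 1.12 in siPcgf5 morulae. Its standard copy Rpl3 rose, with 92.2 to 129 TPM in the 4 late 2-cell libraries and 743 to 966 in the 4 morula libraries. Rpl3l was thus at 15.9% of Rpl3 (from the mean log2 ratio) at the late 2-cell stage and at 0.0760% in morulae, a difference in log2 ratio of -7.71 that depends on the 0.1 TPM added (-6.45 with 1 TPM). The edgeR log2 fold change of Rpl3l was -3.56 (SE 0.690, edgeR adjusted p = 0.00141) in siControl and -4.15 (SE 0.704) in siPcgf5 embryos.

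Rpl10l and Rpl39l, known from testis, and Rpl36al are autosomal relatives of genes on the X chromosome. Rpl10l stood at 107 to 185 TPM at the late 2-cell stage and 146 to 181 in morulae, while X-linked Rpl10 stood at 803 to 879 and later at 2467 to 2587 TPM, so that the log2 ratio went from -2.63 ± 0.302 to -3.93 ± 0.137 (SD, n = 4 at each stage). Rpl39l went from 17.9% to 9.79% of Rpl39, a difference of -0.87 in log2 ratio. This was not a steady fall, since the WT 4-cell log2 ratios, -4.09 and -4.17, lay below all morula ratios. Rpl36al was the abundant partner of its pair, with 1612 to 2913 TPM at the late 2-cell stage, 671% of Rpl36a, and 3715 to 3901 TPM, 238% of Rpl36a, in morulae. Its log2 ratio thus differed by -1.50, with no overlap between the stages. Rpl7l1, which serves in the building of the large subunit, went from 14.6% to 7.76% of Rpl7, with 4 late 2-cell log2 ratios of -2.84, -2.85, -2.67 and -2.74 and 4 morula ratios of -3.77, -3.85, -3.60 and -3.54. Its WT 4-cell ratios, -4.09 and -4.05, also lay below those of morulae. For Rpl3l, Rpl10l and Rpl36al the WT 4-cell mean lay between the means of the other stages. These 4-cell values come from the other experiment.

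In the other 4 pairs the stages overlapped. Rps4l, which the RefSeq table classes as a transcribed pseudogene, stood at 27.7% of X-linked Rps4x at the late 2-cell stage and at 26.6% in morulae, with ratios that overlapped (difference -0.06, exact permutation p = 0.60). Rpl22l1 and Rpl22 were near 1 to 1, at log2 ratios of 0.23, 0.26, -0.05 and 0.41 and then -0.05, 0.03, -0.13 and -0.17 (difference -0.29, exact permutation p = 0.0857). At the 4-cell stage Rpl22l1 was the higher of the pair, with log2 ratios of 0.88 and 0.82 in WT, above all 8 libraries of the knockdown experiment. Rps27l, a p53 target, was the second most abundant member in late 2-cell embryos, with 5070.1 and 4262 TPM in siControl and 4347 and 4408 in siPcgf5, and in morulae it stood at 4805 and 6099 TPM in siControl and 4050.3 and 4768 in siPcgf5. Its edgeR log2 fold change in siControl, 1.33 (SE 0.218), was among the 3 smallest rises.

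**Figure D3:**
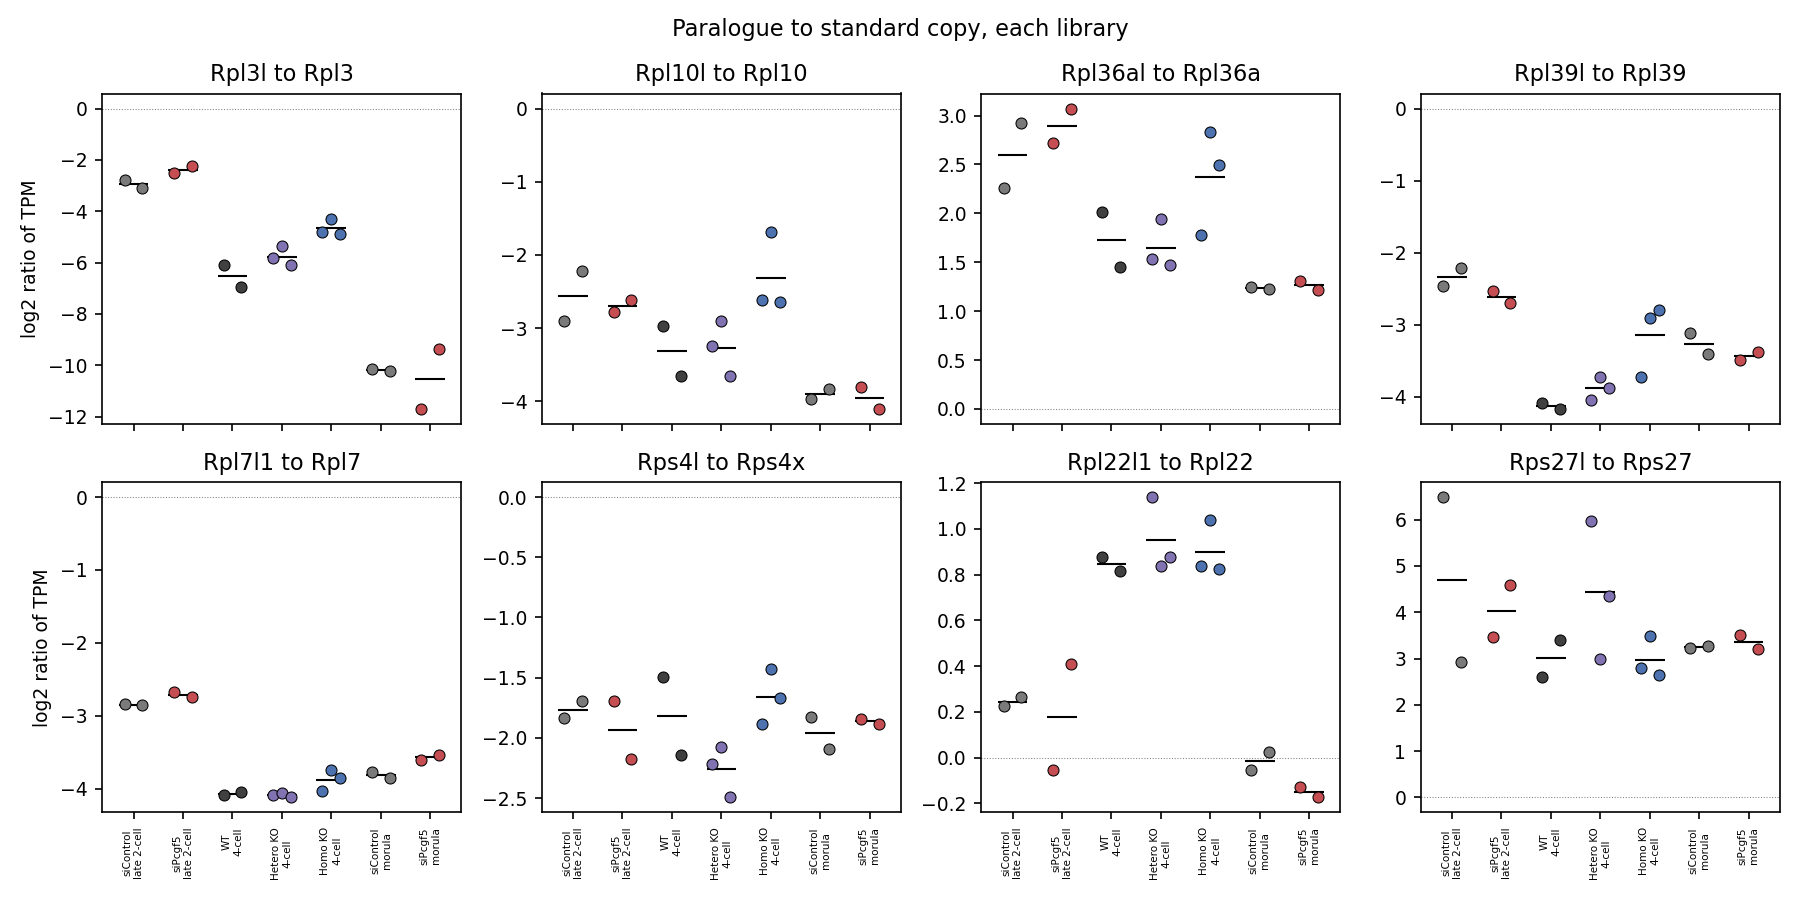
Log2 ratio of the TPM of a paralogue to that of its standard copy in each library (points; bars, group mean; dotted line, equal levels). Morula ratios lie below all late 2-cell ratios for Rpl3l, Rpl10l, Rpl36al, Rpl39l and Rpl7l1, and Rps27l to Rps27 spreads widely within groups.

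Rps27 was not stable between replicates. Its TPM was 56.4 and 563 in the 2 siControl late 2-cell libraries and 87.8, 604 and 209 in the 3 Hetero KO libraries, and between 56.4 and 875 over all 16. Rps27rt, a copy on chromosome 9 that shares bases around the start with Rps27 (see the sequences above), stood at 896 and 907 TPM in the same siControl and 2244, 1584 and 2334 in the same Hetero KO libraries. The sums of both genes were 952 and 1470.5 TPM in siControl and 1490.3 and 1461 in siPcgf5 late 2-cell embryos. In morulae they were 3728 and 3506 in siControl and 3759.96 and 3554 in siPcgf5. In ratio, replicate sums lay closer together than values of Rps27. Adding the more abundant Rps27rt narrows such a ratio in any case, so this does not show that reads were swapped between the genes. In siControl late 2-cell embryos Rps27rt was nearly level while Rps27 differed. Rps27 held from 3.76 to 39.0% of that sum, so its single values are uncertain. How reads were shared out between the genes was not tested. The planned ratio of Rps27l to Rps27 differed by -1.07 between the stages, with groups that overlapped (exact permutation p = 0.343). Against the sum, a choice made after seeing the data, Rps27l had a log2 ratio that was lower by 1.35 in morulae (exact permutation p = 0.0286), and all 6 pairs without overlap then had an adjusted p of 0.0429 over the 9. Rpl37rt is uncertain across the experiments for a like reason, since it held 21.7 to 26.8% of the TPM of Rpl37 and Rpl37rt in the knockdown libraries and 7.94 to 9.56% in the 4-cell libraries. Likewise the pseudogene Rpl14-ps1 held 13.6 to 17.5% and 0.928 to 1.32% of its sum with Rpl14, so a rise of Rpl37rt from WT 4-cell embryos to morulae (2.83) is not read as a stage change.

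Related genes outside the symbol pattern followed. The 6 further ribosomal proteins, among them Rplp0 and Rplp1 of the stalk and Rpsa of the small subunit, were all called higher in siControl morulae, with a median of 2.71. Of 17 other TOP mRNAs, mostly elongation and initiation factors, 16 were higher, with a median of 2.14, among them Gnb2l1, also called Rack1, a protein of the small subunit (4.91, SE 0.281), Eef1g (4.90, SE 0.336) and Eef2 (3.64, SE 0.297). Tpt1 was the exception at 0.26 (SE 0.207). Of 77 mitochondrial ribosomal proteins, which are also made in the cytosol but serve in mitochondria, 71 were higher and 1 lower, with a median of 2.17. Among 20 genes that control ribosomal protein mRNA, 9 were called higher and 4 lower. Larp1 rose by 2.89 (SE 0.277), the translation repressor Eif4ebp1 by 3.38 (SE 0.268), and the S6 kinase Rps6kb2 by 4.02 (SE 0.489), while the S6 kinase Rps6kb1 fell by 1.58 and Mycn by 3.61. Mtor had a value of 0.08 (SE 0.354).

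Knockdown of Pcgf5, a subunit of a variant Polycomb repressive complex 1, moved no member past the threshold at the late 2-cell stage. With edgeR 0 members were called in either direction, as were 0.00589% of all genes in each, 14 members and 947 of 16980 genes had an unadjusted p under 0.05, and limma called 0. Over all genes DESeq2 called 27 higher and 45 lower, with Rpl26 the only member, and limma called 10 and 8. The values leaned to one side, with 82 of 83 log2 fold changes above 0 and a median of 0.37 beside -0.01 over all genes. In 39 members both siPcgf5 libraries were above both siControl libraries in CPM (TMM-scaled counts), against 15.5% of all genes, and in 0 both were below, against 15.7%.

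The median difference was smaller than the gap between the control replicates. Of the 83 members 80 were higher in siControl replicate 2 than in replicate 1 in TPM, with a median log2 difference of 0.48. Without siControl replicate 1 the median knockdown effect was 0.12 with 64 of 83 above 0, and without siControl replicate 2 it was 0.70 with 82 above 0. The 6 oocyte markers, all detected in each of the 4 libraries, summed to 43256 and 26842 TPM in siControl and 36405 and 36066 in siPcgf5, sums carried by Omt2b. Oog3, Gdf9, Bmp15 and Zp2 were likewise highest in siControl replicate 1, and Zp3 was lowest there. The 6 late 2-cell markers moved with the members, with a median log2 fold change of 0.76, and in all 6 both siPcgf5 libraries lay above both siControl libraries in CPM, against 15.5% of all genes. Their sums were 1591 and 1763 TPM in siControl and 2076 and 2939 in siPcgf5. The part of either marker list in the result was not tested. Rpl26 had the smallest p, at 112 and 124 TPM in siControl and 188 and 189 in siPcgf5, a log2 fold change of 0.83 (SE 0.204, edgeR adjusted p = 0.532), and with DESeq2 an adjusted p of 0.0435. Its siControl replicates lay close together and below both siPcgf5 libraries. Rpl41 stood at 8442 and 9925 TPM in siControl and 13055 and 15281 in siPcgf5, a log2 fold change of 0.80 (SE 0.210, edgeR adjusted p = 0.638), and Rps27rt had 0.60 (SE 0.196). Rpl10l was the one member below 0, at -0.0044.

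In morulae the knockdown values were smaller and leaned the other way. With edgeR 0 members and 0% of all genes were called, and 0 members and 716 of 16980 genes had an unadjusted p under 0.05. DESeq2 and limma called 0 members, and DESeq2 called 5 genes higher and 18 lower over all genes. The median was -0.09 beside -0.01 over all genes, and 69 of 83 were below 0. Without siControl morula replicate 1 the median was -0.045 with 31 members above 0, and without replicate 2 it was -0.14. In CPM both siPcgf5 libraries were below both siControl libraries in 38 members, against 17.7% of all genes, and above in Rpl37rt alone, against 13.8%. The summed shares of TPM overlapped, at 23.4 and 22.4% in siControl and 22.7 and 21.8% in siPcgf5. Rps27l had the smallest p, at 4805 and 6099 TPM in siControl and 4050.3 and 4768 in siPcgf5, with -0.35 (SE 0.215, edgeR adjusted p = 1). Rpl26 had -0.25 (SE 0.200) and Rpl22l1 -0.25 (SE 0.260), and on the other side Rpl3 had 0.12 (SE 0.251), Rpl37rt 0.11 (SE 0.263) and Rpl10a 0.07 (SE 0.226).

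The difference between the knockdown effects, morula minus late 2-cell, was negative in all 83 members and passed in none. EdgeR called 0 members and 0% of all genes, and 6 members and 842 of 16980 genes had an unadjusted p under 0.05. DESeq2 and limma called 0 members. Over all genes DESeq2 called 18 higher and 14 lower, and limma 1 lower. The median was -0.45 beside -0.05 over all genes. It was -0.18 without siControl late 2-cell replicate 1, with 16 members above 0, and -0.75 without siControl late 2-cell replicate 2. Rpl26 had the largest difference, -1.08 (SE 0.285, edgeR adjusted p = 0.695). The next smallest p-values were those of Rpl41 with -0.81 (SE 0.296) and Rps29 with -0.79 (SE 0.290). This test uses the same libraries as both knockdown comparisons and adds no separate evidence of either.

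**Figure D4:**
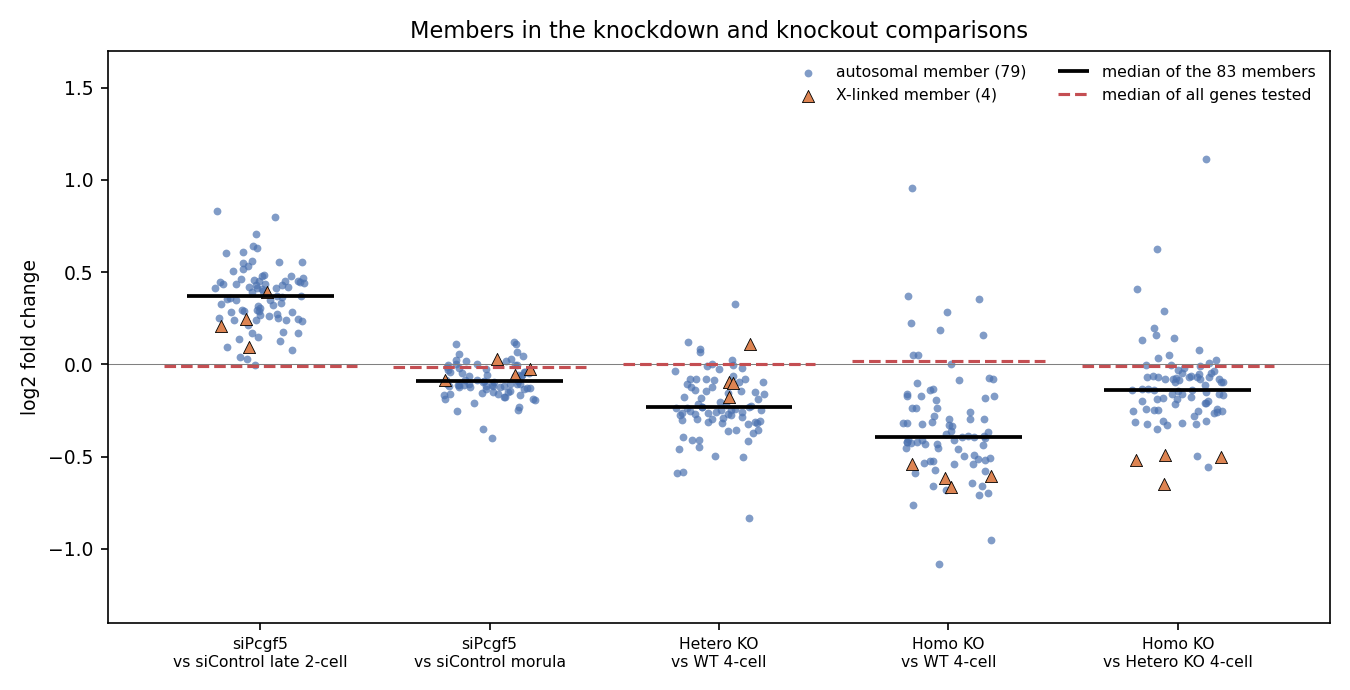
Log2 fold change of each of the 83 members in 5 comparisons (dots, 79 autosomal members; triangles, the 4 X-linked members; solid line, median of the members; dashed line, median of all genes tested). The members' medians are 0.37, -0.09, -0.23, -0.39 and -0.14 from left to right, those of all genes lie between -0.01 and 0.02, and no member was called by edgeR.

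Embryos homozygous for the MT2C_Mm deletion had lower values than WT embryos in most members, without a call. In Homo KO against WT edgeR called 0 members and 0% of all genes in either direction. An unadjusted p under 0.05 was found in 27 members and 1701 of 13766 genes. DESeq2 called Rps2 and Rpl37a lower, beside 237 genes higher and 96 lower over all genes, and limma called 0. The median was -0.39 beside 0.02 over all genes, and 73 of 83 members were below 0. In CPM all Homo KO libraries lay below both WT libraries in 31 members, against 15.2% of all genes, and above in 2, Rpl3l and Rps27l, against 15.1%. The share of TPM was 15.5 and 16.7% in WT and 14.6, 12.6 and 12.5% in Homo KO, with no overlap. Without WT replicate 2 the median was -0.20, and without WT replicate 1 it was -0.56.

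Rps2, at the channel where mRNA enters the small subunit, had the largest value. Its TPM was 1093 and 1015 in WT, 551, 409 and 517 in Homo KO and, between them, 755, 589.7 and 769.9 in Hetero KO embryos, a log2 fold change of -1.08 (SE 0.201, edgeR adjusted p = 0.203) in Homo KO against WT. All 6 knockout libraries lay below both WT libraries. With DESeq2 the adjusted p of Rps2 was 0.00184, and with edgeR without a filter on low counts 0.0140. Rpl37a, of the large subunit, had 2436 and 2325 TPM in WT, 1652, 1364 and 1321 in Homo KO and 1899, 1579.7 and 1791 in Hetero KO, with -0.70 (SE 0.183, edgeR adjusted p = 0.236) in edgeR and an adjusted p of 0.0471 in DESeq2. Rps12, a protein of the small subunit's beak, followed with 732 and 631 TPM in WT, 491, 355 and 403 in Homo KO and 518, 467 and 479 in Hetero KO, and in Homo KO against WT with -0.68 (SE 0.201). In these 3 genes the group means fell in the order of WT, Hetero KO and Homo KO, and in TPM, though not in CPM, every Homo KO library lay below every Hetero KO library in Rps2. Rpl3 followed Rps2 in size, a value named after it was seen, with -0.95 (SE 0.291) from 628 and 886 TPM in WT and 461, 293 and 429.7 in Homo KO. The members with the smallest p on the other side were Rpl3l at 0.96 (SE 0.365), from 9.16 and 6.97 TPM in WT to 16.4, 14.9 and 14.3 in Homo KO, Rps27l at 0.35 (SE 0.162) and Rpl10l at 0.37 (SE 0.232).

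Other members with a role named above had smaller values in Homo KO against WT. Rpl5 had -0.42, Rpl11 -0.41, Rps6 -0.37, Rps27a -0.30, Rpl38 -0.26, Rps26 -0.14 and Rps19 -0.09. In CPM the groups overlapped in each of these 7 genes. The 6 ribosomal proteins outside the symbol pattern were all below 0 with a median of -0.37, 14 of 17 other TOP mRNAs were below 0 with a median of -0.28, and the 77 mitochondrial ribosomal proteins had 38 above and 39 below 0 and a median of -0.002. None of these lists held a gene that edgeR called.

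Late 2-cell markers differed between the same libraries. All 6 markers were detected in every 4-cell library except WT replicate 2, where Zscan4c was at 0. Their summed TPM was 281 and 16.6 in WT, 276, 381 and 378 in Homo KO and 151, 95.7 and 54.8 in Hetero KO, so the 2 WT libraries differed more from each other than WT replicate 1 did from Homo KO. The 6 oocyte markers were all detected and summed to 2827 and 2134 TPM in WT, 2147, 2295 and 4306 in Homo KO and 7503, 3096 and 1466 in Hetero KO. In Homo KO against Hetero KO all 6 late 2-cell markers were higher in every library, in CPM. The part of either list in the ribosomal protein values was not tested.

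Hetero KO embryos lay between the other genotypes. Against WT edgeR called 0 members and 0% of all genes, and 5 members and 655 of 13766 genes had an unadjusted p under 0.05. DESeq2 and limma called 0 members, and DESeq2 called 6 genes higher and 1 lower over all genes. The median was -0.23 beside 0.00 over all genes, with 76 members below 0, and in CPM all 3 Hetero KO libraries were below both WT libraries in 17 members, against 11.1% of all genes, and above in Rpl3l alone, against 9.47%. Without WT replicate 2 the median was -0.05 and 32 members were above 0, and without Hetero KO replicate 2 it was -0.10. Rps2 had -0.58 (SE 0.202), Rps12 -0.50 (SE 0.201) and Rpl37a -0.46 (SE 0.184), while Rpl3l had 0.33 (SE 0.359), Rpl23a 0.12 (SE 0.173) and Rpl39l 0.09 (SE 0.201). Homo KO and Hetero KO are each compared with the same WT pair, so these 2 sets of values are not independent.

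Homo KO against Hetero KO, which leaves WT out, gave a median of -0.14 beside -0.01 over all genes, with 70 members below 0. Without Hetero KO replicate 3 the median was -0.0089 with 39 members above 0, and without Homo KO replicate 1 it was -0.25. EdgeR called 0 members and 0% of all genes, and 3 members and 1131 of 13766 genes had an unadjusted p under 0.05. DESeq2 and limma called 0 members, and DESeq2 called 89 genes higher and 22 lower over all genes. In CPM all Homo KO libraries lay below all Hetero KO libraries in 1 member, Rpl14, against 6.38% of all genes, and above in 2, Rpl3l and Rps27l, against 8.33%. The smallest p-values were those of Rps2 at -0.50 (SE 0.183), Rps4x at -0.65 (SE 0.276) and Rpl3 at -0.56 (SE 0.265). Above 0 they were those of Rps27l at 0.29 (SE 0.143), Rpl10l at 0.41 (SE 0.206) and Rps27 at 1.12 (SE 0.378), whose level was not stable between replicates.

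X-linked members differed between the Homo KO replicates at the 4-cell stage. The 4 genes Rpl10, Rpl36a, Rpl39 and Rps4x summed to 11554, 5874 and 6559 TPM in Homo KO, 10685 and 14504 in WT and 12431, 10039 and 13172 in Hetero KO. Rpl39 stood at 7304, 3751 and 3868 TPM in the 3 Homo KO libraries and ranged from 6381 to 9148 in the other 5. Rpl10 showed the same split, at 1672, 767 and 1043 in Homo KO and 1368 to 2057 TPM in the other 5, as did Rps4x, at 1405, 786 and 961 against 1273 to 1992. In all 4 genes Homo KO replicates 2 and 3 were the lowest of the 8 libraries and replicate 1 lay within the range of WT and Hetero KO. This order was not particular to them. The autosomal members summed to 134915, 120073 and 118352 TPM in Homo KO and 122346 to 152545 in the other 5. The X-linked drop was larger, with 7.89, 4.66 and 5.25% of the members' TPM in Homo KO and 6.89 to 8.68% in the other 5. EdgeR's log2 fold changes in Homo KO against WT were -0.67 (SE 0.315) for Rpl39, -0.61 (SE 0.341) for Rpl10, -0.60 (SE 0.359) for Rpl36a and -0.54 (SE 0.304) for Rps4x, with groups that overlapped and adjusted p from 0.421 to 0.521. Of their autosomal copies, Rps4l was also lowest in those 2 libraries, at 379, 292 and 303 TPM in Homo KO against 324 to 452 in the other 5, and the other copies were not, with Rpl36al at 4009.8, 4063 and 3873 TPM and Rpl39l at 549, 498 and 557 TPM in Homo KO, against 3544 to 4132 and 406 to 529.9 in the other 5.

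**Figure D5:**
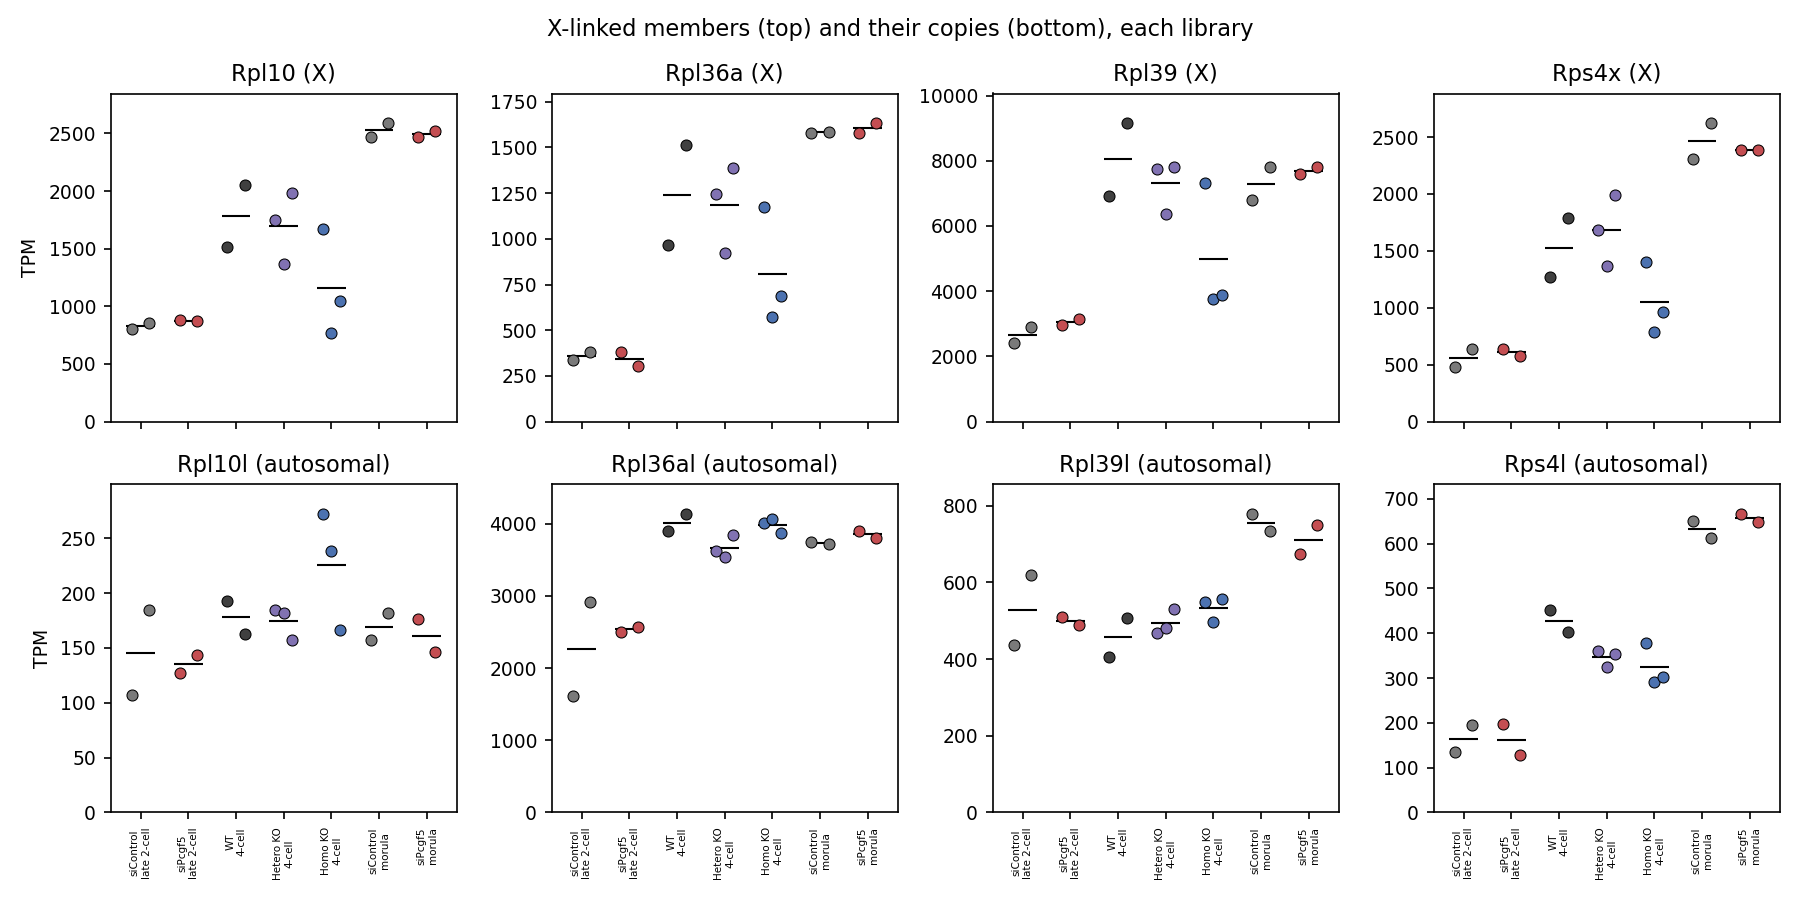
TPM of the 4 X-linked members (top) and of their copies on autosomes (bottom) in each library (points; bars, group mean). Homo KO replicates 2 and 3 lie lowest among 4-cell libraries in every top panel, at 5874 and 6559 TPM summed over the 4 genes, and within or above the range of the WT and Hetero KO libraries for Rpl10l, Rpl36al and Rpl39l, and below it for Rps4l.

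Y-linked transcripts and Xist set Homo KO replicates 2 and 3 apart as well, while the sum of the other X-linked genes was lowest in replicate 2 alone. Transcripts of Y-linked genes summed to 43.1, 96.1 and 78.8 TPM in Homo KO, against 19.0 to 66.0 in the other 5 libraries, so the same 2 libraries were highest. Xist, the RNA of the inactive X chromosome, stood at 2.82, 0.560 and 0.540 TPM in Homo KO and at 0.870 to 6.72 in the other 5. The X-linked genes other than the members summed to 36559.8, 24937 and 30182 TPM in Homo KO and 27001 to 40949 TPM in the other 5, and 542 of them tested had a median log2 fold change of 0.04 in Homo KO against WT. Whether the sex of the pooled embryos bears on the X-linked values was not tested. With the 79 autosomal members alone, a choice made after seeing the data, the median in Homo KO against WT was -0.39, as with all 83, and 69 were below 0.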

How the data were processed

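The authors deposited RSEM gene files for 24411 genes, with expected counts (reads assigned to genes by RSEM, not normalised) and TPM (scaled by effective length and library), per the file headers. The submitters' processing notes list mm10, RSEM 1.3.3, STAR 2.7.10, deepTools and Bowtie2 2.4.5 but give no roles. Filters and strand are not given in the sources used here. Per the labels' protocols the library kit was SMART-Seq v4 PLUS, and 4 chromatin libraries were not used here.

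Expected counts were rounded, filtered (filterByExpr, minimum 10) and TMM-scaled. The test was the robust quasi-likelihood F test of edgeR 4.0.16 under R 4.3.3, two-sided, adjusted by Benjamini-Hochberg with a threshold of 0.05, run apart for knockdown (16980 genes) and 4-cell libraries (13766), and over all 16 libraries for comparisons across experiments (16669). The code was tested on simulated data. A lone replicate, where 1 of 2 was left out, was assumed to vary like the other groups. Pair ratios used log2 of TPM plus 0.1. Positions and starts come from RefSeq on GRCm38.p6, where all 83 symbols matched. Library totals ran from 14310634 to 55620137 counts, and Rpl3l in morulae had the lowest TPM of all members. Alternatives were DESeq2 1.42.0, limma 3.58.1, no filter, other scalings and pseudocounts, a replicate block, only the groups compared, and leaving out each library.

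Named were the 5 largest called changes per direction and comparison (or the 3 smallest p), the 5 most and 3 least abundant standard copies, the pairs and 8 genes with known roles. A gene that this rule took is not reported here. Further genes are named as examples. Members and lists were chosen with earlier results of these data known.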

Additional observations from a re-analysis of the deposited data

How the results depend on the processing

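Between the siControl stages 82 of 83 members were positive under every setting tried. From WT to siControl morula 82 were positive with edgeR and 76 with limma, and from late 2-cell to WT 81 and 79. Over all settings 420 recomputed main results kept direction and call or size, 25 moved, 12 newly passed and 3 changed sign. For single genes these were 577 kept, 7 newly passed and 9 of changed sign. With DESeq2 size factors or its Wald test the median of the siPcgf5 step was 2.55. With limma on log2(TPM + 1) the medians were 2.14 (siControl step), 1.79 (siPcgf5 step) and 0.61 with 48 members higher (siControl morula against WT), and 2 members were lower in WT against siControl late 2-cell. DESeq2 called 1 member higher with knockdown at the late 2-cell stage, beside 27 genes higher and 45 lower over all genes. In Homo KO against WT it called 2 members lower, beside 237 genes higher and 96 lower. EdgeR without a filter called 1 member lower there, beside 38 genes higher and 21 lower. As a share of expected counts the members held 2.02% and 2.58% of late 2-cell libraries (siControl, then siPcgf5), 10.6% and 10.04% of morula libraries, and 5.55%, 4.89% and 4.42% of WT, Hetero KO and Homo KO libraries. Why these values moved was not tested.

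With Rps27 and Rps27rt summed, a choice made after seeing the data, 6 pairs passed an exact permutation test at an adjusted p of 0.0429, with differences of -7.71 (Rpl3l), -1.50 (Rpl36al), -1.35 (Rps27l), -1.30 (Rpl10l), -0.91 (Rpl7l1) and -0.87 (Rpl39l). Rps4l to Rps4x was 0.075 in siPcgf5 alone.

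Leaving out each library gave medians of 2.90 to 3.49 (siControl step), 2.60 to 2.76 (siPcgf5 step), 1.54 to 2.17 (WT against late 2-cell), 1.20 to 1.55 (morula against WT), 0.12 to 0.70 with 0 to 12 called (knockdown, late 2-cell), -0.14 to -0.045 (knockdown, morula), -0.75 to -0.18 (difference of knockdown effects), -0.56 to -0.20 (Homo KO against WT), -0.38 to -0.048 (Hetero KO against WT) and -0.25 to -0.0089 (Homo KO against Hetero KO). Pair differences ran from -8.03 to -7.26 (Rpl3l), -1.66 to -1.39 (Rpl36al), -1.39 to -1.16 (Rpl10l), -0.96 to -0.86 (Rpl7l1), -0.95 to -0.79 (Rpl39l), -1.55 to -0.36 (Rps27l), -0.38 to -0.23 (Rpl22l1), -0.17 to 0.0017 (Rps4l) and -0.10 to 1.00 (Rps27rt). Single genes that changed sign were Rpl10l (-0.36 to 0.50) and Rpl10a (-0.057 to 0.17) with knockdown at the late 2-cell stage and in morulae, Rpl23a (-0.041 to 0.28) and Rpl39l (-0.17 to 0.37) in Hetero KO, and Rpl37rt (-0.65 to 0.165) in WT against late 2-cell.

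Same-numbered replicates did not deviate together (r from -0.129 to 0.168). This cannot show whether they share a culture, and the labels do not say whether the numbers pair the samples. With a replicate block the siControl step kept 82 members higher and 1 lower with a median of 3.19, and Rpl10l with knockdown at the late 2-cell stage was 0.030. Pools of 10 embryos in groups of 2 or 3 limit what the perturbation tests can call, and depth is a limit for Rpl3l in morulae.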
